A study of Homo sapiens with 8 samples.

Results

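Axon guidance ligands and receptors were taken from the deposited gene table as the protein-coding genes whose symbols belong to the class 3 to 7 semaphorins, the plexins, the neuropilins, the SLIT and ROBO families, the netrins with UNC5, DCC and neogenin, or the ephrins and Eph receptors. The rule used gene symbol and biotype alone and found 69 of the 30386 genes in the table, 35 of them ligands and 34 receptors. The study sequenced messenger RNA of 8 endothelial samples, all at passage 1, made from the human line WTC-TJP1 (an established line of induced pluripotent stem cells). The 4 samples of the first group are endothelial cells (iEC) and the 4 of the second are retinal endothelial cells (iREC) from a matched differentiation, each group with samples lettered C to F. No allele, agent or dose separates the groups in the labels, and the cell type label of both reads endothelial cells derived from induced pluripotent stem cells, so "retinal" rests on the series title and design. Both groups come from 1 line, and nothing in the labels says that the letters are separate cultures, so the p-values measure the spread between these samples, which may be technical.

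Axon guidance cues are secreted or membrane-bound ligands that turn growing axons towards or away from a source, and endothelial cells use the same receptors to sort arteries from veins and to steer sprouting tip cells. Ephrin-B2 marks arterial endothelium and its receptor EphB4 marks venous endothelium. Class 3 semaphorins signal through neuropilins held with plexins, SLIT proteins signal through ROBO receptors, and netrins signal through UNC5 receptors, DCC and neogenin. In the retina, several of these pairs are known for shaping vessel growth beside neurons.

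Of the 69 genes, 59 passed the filter on low counts and were tested. Of these, 26 differed between the groups at an edgeR adjusted p under 0.05, which is 44.1% of those tested beside 25.0% of all 15330 genes tested. In iREC, 15 were higher (25.4%, beside 13.2% of all genes) and 11 were lower (18.6%, beside 11.7%). The groups did not overlap in CPM (counts scaled to a common library total, on libraries scaled by the TMM method) for 26 of the 59, or 44.1%, beside 29.1% of all genes tested. The median log2 fold change of iREC over iEC was 0.38 over the tested members and 0.02 over all genes. Among ligands 14 of 31 tested differed, 9 higher and 5 lower in iREC, and among receptors 12 of 28 differed, 6 in each direction. The highest rises were in SEMA5A, NTN4 and SEMA5B, and the deepest falls were in SEMA3E and EFNB1.

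The tested members did not all have reads throughout. Of the 59, 43 were above the filter's cutoff of 0.645 CPM in all 8 samples, 9 were complete in iREC alone, 3 in iEC alone and 4 in neither group. Of the 26 calls, 19 were on genes above the cutoff in every sample. Genes complete in iREC alone, SEMA5A and SEMA5B among them, could pass the filter through that group. All 59 entered the counts and the median above. EPHA3, EPHA6, EPHA8, EPHA10, EPHB3, EFNA2, NTN3, NTN5, SLIT1 and UNC5A were not tested, and none of them exceeded 1.7 CPM in any sample.

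**Figure D1:**
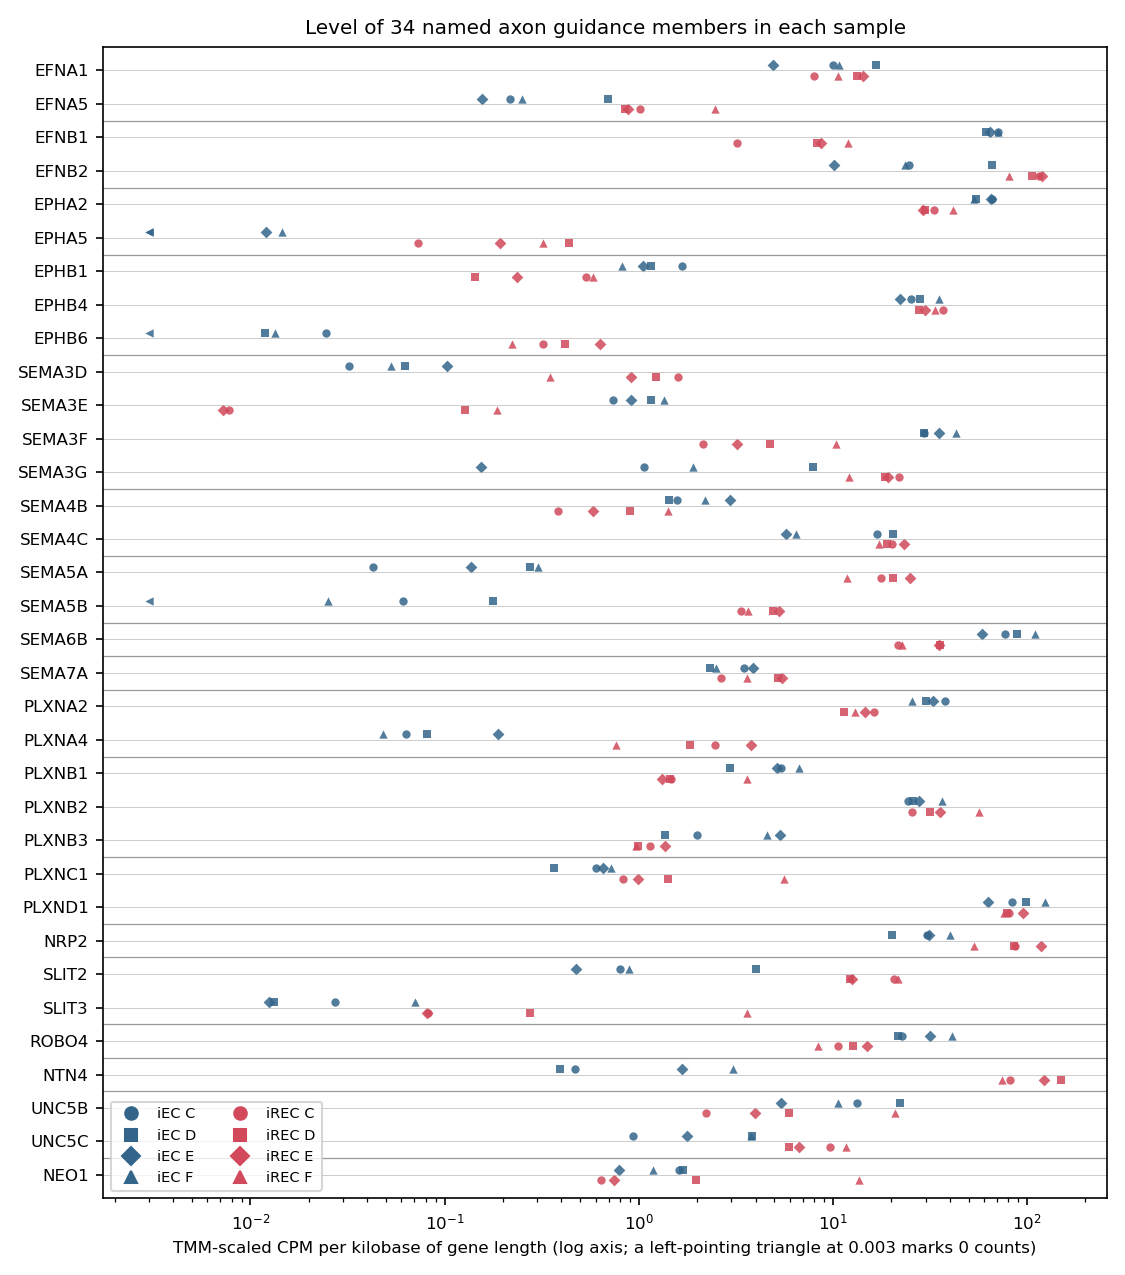
Level of the 34 named members in each sample, in TMM-scaled CPM per kilobase of gene length on a log axis, with 1 point per sample (blue iEC, red iREC, a symbol per letter) and a left-pointing triangle for 0 counts. SEMA5A, SEMA5B and NTN4 are low in all 4 iEC samples and high in all 4 iREC samples, while all iREC points of EFNB1 and SEMA3F lie below iEC.

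The iEC libraries held 14877502 to 16971865 counts and the iREC libraries 13739364 to 15987839. The floor was set at 3 counts, worth 0.178 to 0.215 CPM in iEC and 0.183 to 0.214 CPM in iREC, for counting error only, since the labels give no molecular identifiers. One library in each group stood apart on these genes. In iREC F, 14 of the 59 tested members were at least 2-fold above the next iREC sample, beside 4.05% of all genes, and in iEC D, 7 were at least 2-fold above the next iEC sample, beside 2.19% of all genes. No more than 1 member did so in any other sample. The summed level of 14 mural and mesenchymal markers was 4600 CPM in iREC F against 635 to 1276 CPM in the other iREC samples and 236 to 492 CPM in iEC. Of its 11 tested genes, 4 were higher in iREC (the smooth muscle genes CNN1 and TAGLN and the matrix gene LUM among them) and RGS5 was lower. The 6 epithelial keratin and adhesion markers summed to 4924 CPM in iREC F against 302 to 1117 CPM in the other iREC samples, with KRT7 alone called, and 5 pluripotency genes to 505 CPM against 53.3 to 173 CPM, with POU5F1, NANOG and SOX2 near 0. LIN28A made up 482 of those 505 CPM and was called higher in iREC (edgeR adjusted p = 0.0242). DPPA4, the other tested gene of that list, was called lower (edgeR adjusted p = 0.0166). The 10 endothelial markers summed to 4359 CPM in iREC F, 7399 to 9787 CPM in the other iREC samples and 6582 to 8665 CPM in iEC. That sum hides changes in both directions, since 6 of the 10 were called. EMCN, TEK and CLDN5 were higher in iREC, and PECAM1, ESAM and CDH5 were lower. PECAM1 went from 1927 to 2605 CPM in iEC to 493 to 855 CPM in iREC, and TEK from 33.5 to 84.0 CPM to 466 to 1118 CPM. Neuronal markers summed to 34.1 to 104 CPM in iREC and 127 to 185 CPM in iEC. Of 7 tested, NEFL and TUBB3 were called lower in iREC and STMN2 was called higher (edgeR adjusted p = 0.0499). Lymphatic markers summed to 405 to 724 CPM over the iREC samples, against 570 to 954 CPM over the iEC samples. Most of this was LYVE1 (mean 362 CPM for iREC, 488 CPM for iEC) and FLT4 (mean 202 CPM for iREC, 201 CPM for iEC). PDPN averaged 4.19 CPM for iREC against 1.28 CPM for iEC, and PROX1 was near 0. No lymphatic gene was called. The part of other cell types in the results below was not tested, and in bulk samples fewer cells of a type and less RNA per cell cannot be told apart.

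**Figure D2:**
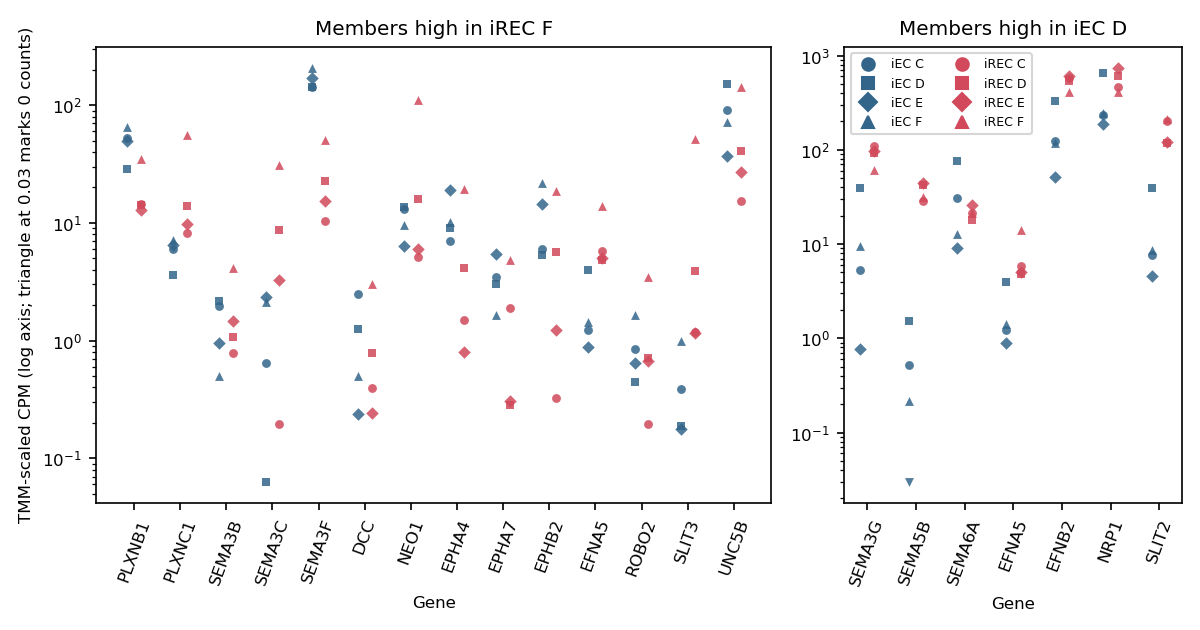
TMM-scaled CPM on a log axis for the 14 members at least 2-fold above the next iREC sample in iREC F (left) and the 7 at least 2-fold above the next iEC sample in iEC D (right), with 1 point per sample and a triangle for 0 counts. NEO1, SLIT3 and PLXNC1 lie far above the other iREC samples in iREC F, as do SEMA3G, SLIT2 and EFNB2 above the other iEC samples in iEC D.

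The 250 bases before the annotated start of 4 members are printed to set beside each other genes that moved in opposite directions: SEMA5A, SEMA3G and EFNB2 were higher in iREC, and EFNB1 was lower. They are RefSeq sequences of the GRCh38.p14 build on the gene's own strand, 5′ to 3′, at chr5:9546076-9546325 (minus strand), chr3:52445104-52445353 (minus), chr13:106535663-106535912 (minus) and chrX:68828771-68829020 (plus). Capitals mark GGGCGG or its reverse complement CCGCCC, the GC box read by SP and KLF factors.
SEMA5A: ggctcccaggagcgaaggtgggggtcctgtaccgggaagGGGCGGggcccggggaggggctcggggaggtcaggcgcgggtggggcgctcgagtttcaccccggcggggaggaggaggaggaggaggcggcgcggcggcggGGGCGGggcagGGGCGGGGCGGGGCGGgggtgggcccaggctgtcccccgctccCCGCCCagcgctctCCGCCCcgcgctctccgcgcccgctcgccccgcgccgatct
SEMA3G: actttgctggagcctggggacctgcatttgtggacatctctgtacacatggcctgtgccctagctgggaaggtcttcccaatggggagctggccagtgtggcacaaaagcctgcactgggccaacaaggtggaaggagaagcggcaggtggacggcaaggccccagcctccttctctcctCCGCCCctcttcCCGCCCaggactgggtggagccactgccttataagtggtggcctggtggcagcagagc
EFNB2: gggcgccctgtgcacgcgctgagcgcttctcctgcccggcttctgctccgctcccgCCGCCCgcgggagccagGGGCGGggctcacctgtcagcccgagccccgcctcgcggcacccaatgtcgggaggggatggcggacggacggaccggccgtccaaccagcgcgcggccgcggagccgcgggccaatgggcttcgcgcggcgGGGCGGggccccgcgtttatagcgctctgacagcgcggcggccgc
EFNB1: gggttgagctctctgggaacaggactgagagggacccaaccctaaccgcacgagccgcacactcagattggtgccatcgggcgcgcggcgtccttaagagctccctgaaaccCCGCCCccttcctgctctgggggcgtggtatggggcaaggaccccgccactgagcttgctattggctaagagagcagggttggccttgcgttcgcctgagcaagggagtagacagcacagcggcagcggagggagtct
The GC box occurred 7 times before SEMA5A, 3 times before EFNB2, 2 times before SEMA3G and once before EFNB1, counted on both strands with overlaps. The GC content of these windows was 82.0%, 78.4%, 62.0% and 63.6% in that order. Of the 69 members, 60 had a promoter in the RefSeq table, and 52 of the 60 (86.7%) held the motif, beside 46.2% of all 27305 genes. The 2 sets are unlike, since the members are protein-coding and the 27305 genes were not filtered by biotype. A gene with several promoters also had more chances to hold the motif. Per promoter, 70.7% of 92 member promoters held it, beside 42.6% of all 35116. A match describes the letters only, and no relation between the motif and direction was tested. Among other called members, it occurred 3 times before PLXNA2 and 1 time before EPHA2, both lower in iREC. Before NRP2 and EPHB6, both higher in iREC, it occurred 3 times and 1 time.

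Ephrins and their receptors form a family of 22 members, with 16 tested and 7 called, 4 higher and 3 lower in iREC. The B-type ephrins changed in opposite directions. EFNB2, the arterial ligand, stood at 123.2, 332, 51.0 and 118 CPM in iEC C, D, E and F and at 576, 534, 602 and 407 CPM in the iREC samples in the same order. Every iREC sample lay above every iEC sample, and the highest iEC value was in sample D. The log2 fold change was 1.77 ± 0.48 (SE; edgeR adjusted p = 0.0247). Without iEC D it was 2.44, and the call was lost without iEC C, iEC F, iREC D or iREC E (adjusted p 0.0555 to 0.0662). The EFNB2 exons overlap AL138689.2 on the opposite strand, whose counts were 1.74% of those of EFNB2. EFNB1, which binds the same B-type receptors, stood at 234, 204, 213 and 235 CPM in iEC and 10.6, 27.3, 28.95 and 39.8 CPM in iREC. All 4 iREC samples were far below iEC, by 8.30-fold (log2 fold change -3.05 ± 0.34, edgeR adjusted p = 0.000311).

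EPHB4, the venous receptor of ephrin-B2, stood at 162, 182, 143 and 228 CPM in iEC and 237, 178, 192 and 217 CPM in iREC. The groups overlapped, and it did not pass the test (log2 fold change 0.20 ± 0.16, edgeR adjusted p = 0.398). EPHB1, another ephrin-B receptor, fell from 11.6, 8.09, 7.34 and 5.73 CPM to 3.73, 0.999, 1.65 and 4.06 CPM (log2 fold change -1.65 ± 0.45, edgeR adjusted p = 0.0254), with the call lost without iEC C or iREC E (adjusted p 0.0663 and 0.0693). EPHB6, a receptor whose kinase domain is inactive, had at most 2 counts in any iEC sample and 1.70, 2.21, 3.36 and 1.18 CPM in iREC. With iEC set at its floor, the iREC mean was at least 9.84-fold higher. EPHB2 was not called.

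On the A side, EPHA2, the main endothelial receptor of ephrin-A1, fell from 275, 228, 273 and 222 CPM in iEC to 139, 125, 121 and 173 CPM in iREC. The groups did not overlap (log2 fold change -0.84 ± 0.15, edgeR adjusted p = 0.0031). Its ligand EFNA1 stood at 12.6 to 42.3 CPM in iEC and 20.3 to 36.2 CPM in iREC and was not called. EPHA5 had at most 2 counts in any iEC sample and 0.720, 4.28, 1.89 and 3.14 CPM in iREC, whose mean was at least 11.7-fold higher than iEC set at its floor. EFNA5 stood at 1.24, 3.98, 0.888 and 1.43 CPM in iEC and 5.82, 4.85, 5.01 and 14.02 CPM in iREC (log2 fold change 1.97 ± 0.55, edgeR adjusted p = 0.028). Without iREC F its log2 fold change was 1.47 with an adjusted p of 0.0562, and the call was also lost without iEC C, E or F; without iEC D it was 2.63. EPHA4 was not called over all samples (log2 fold change -0.81, adjusted p = 0.525) and was at -2.40 without iREC F (adjusted p = 0.0163). EFNA4 was lower in all iREC samples without passing the test (adjusted p = 0.0636).

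**Figure D3:**
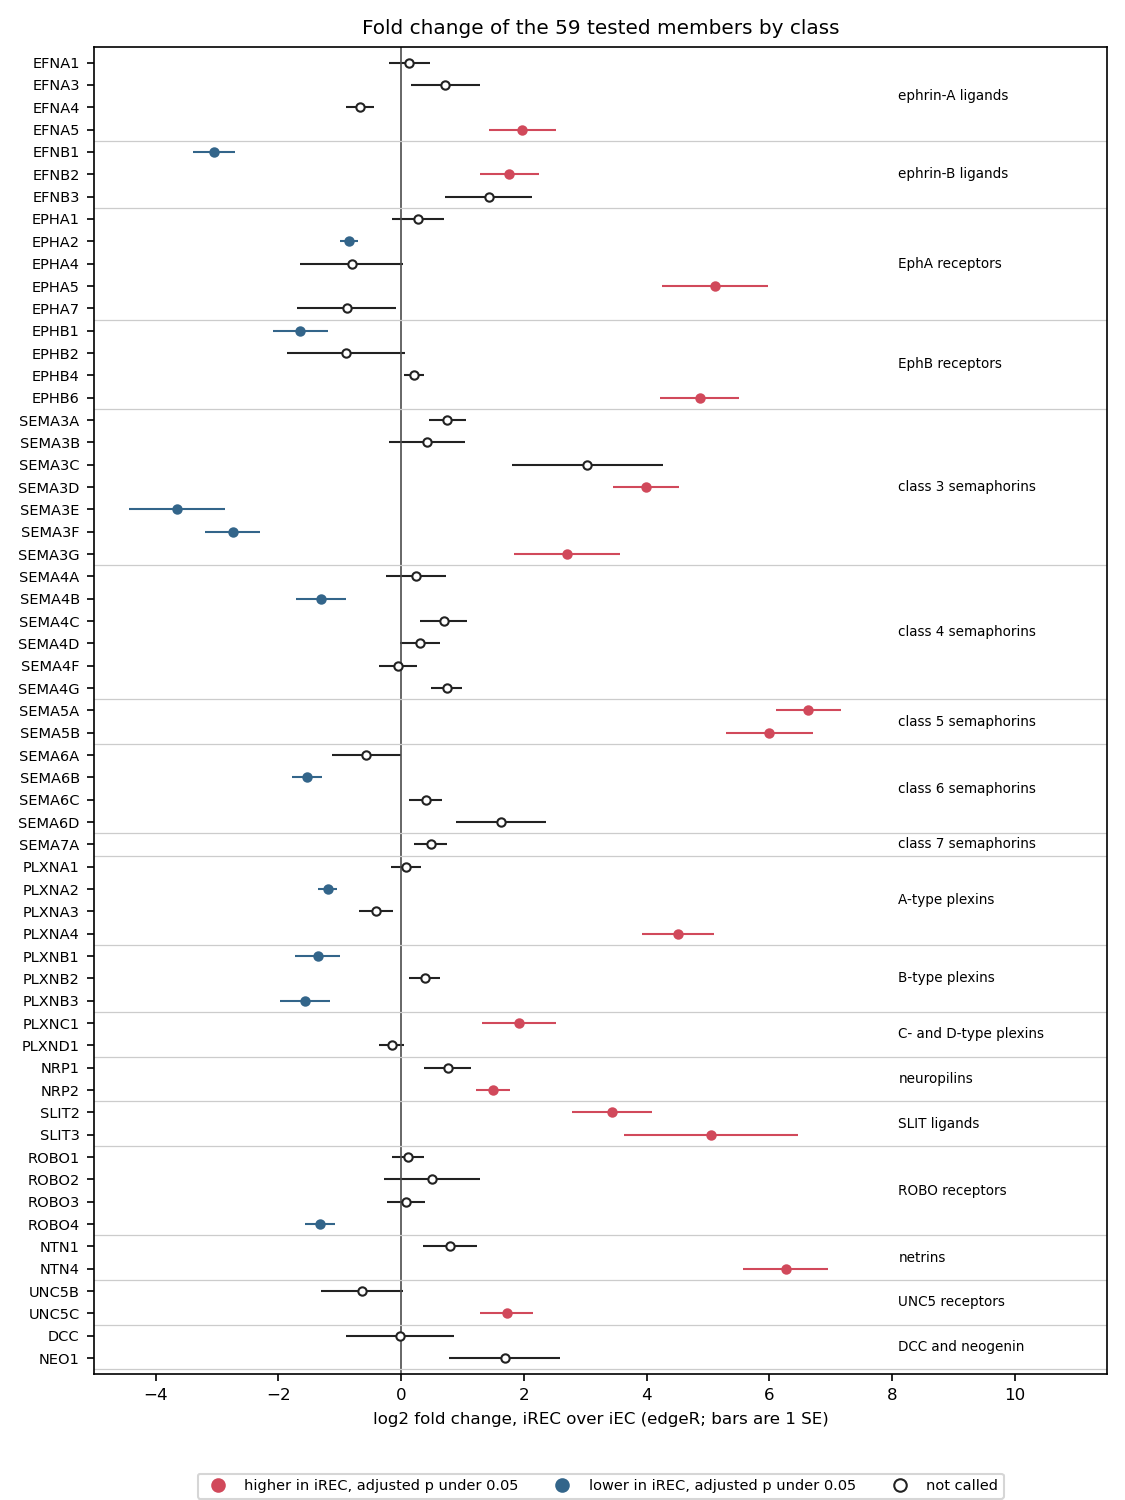
Log2 fold change of iREC over iEC by edgeR for the 59 tested members by class, with bars of 1 standard error, filled points for called genes (red higher, blue lower in iREC) and open points for the rest. SEMA5A at 6.63 and NTN4 at 6.26 are the highest points, and SEMA3E at -3.65 is the lowest; the fitted values of EPHA5 and EPHB6 rest on at most 2 counts in iEC and are not bounds.

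Semaphorins, plexins and neuropilins number 31, all tested, with 14 called, 7 in each direction. The class 5 semaphorins, transmembrane ligands with thrombospondin repeats, were low in iEC and higher in every iREC sample. SEMA5A stood at 0.520, 3.35, 1.66 and 3.65 CPM in iEC and 213, 247, 304 and 143 CPM in iREC, a 99.0-fold difference (log2 fold change 6.63 ± 0.53, edgeR adjusted p = 6.36e-05). SEMA5B stood at 0.520, 1.52, 0 and 0.215 CPM in iEC and 28.6, 41.9, 44.7 and 31.3 CPM in iREC. The lowest iREC value of each gene exceeded the highest iEC value many times over (SEMA5B log2 fold change 6.0 ± 0.71, edgeR adjusted p = 0.000415; 7.21 without iEC D).

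Class 3 semaphorins, the secreted ligands of the neuropilins, split in direction. SEMA3F, which binds neuropilin-2, fell from 143, 143, 170 and 208 CPM to 10.3, 22.8, 15.5 and 50.2 CPM, with the highest iREC value in sample F (log2 fold change -2.75 ± 0.44, edgeR adjusted p = 0.00209; -3.36 without iREC F). SEMA3E, which binds plexin-D1 directly, fell from 6.18 to 11.3 CPM in iEC to 0.0654, 1.07, 0.0611 and 1.57 CPM (log2 fold change -3.65 ± 0.79, adjusted p = 0.00889; -4.48 without iREC F). SEMA3D rose from 0.260, 0.506, 0.8287 and 0.430 CPM to 12.8, 9.92, 7.39 and 2.82 CPM (log2 fold change 3.99 ± 0.54, adjusted p = 0.000824). SEMA3G, an arterial semaphorin that also binds neuropilin-2, was the least settled of these genes. It stood at 5.33, 39.5, 0.770 and 9.52 CPM in iEC and 109, 92.9, 96.6 and 60.5 CPM in iREC (log2 fold change 2.70 ± 0.86, edgeR adjusted p = 0.0462). Without iEC D it was 4.10 (adjusted p = 0.00377), and the call was lost without iEC C, iEC F, iREC C, iREC D or iREC E (adjusted p 0.0827 to 0.104). SEMA3A, SEMA3B and SEMA3C were not called; SEMA3C ran from 0.0632 to 30.7 CPM over the 8 samples.

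Among the other semaphorins, SEMA6B, a transmembrane ligand of A-type plexins, fell from 340, 390, 258 and 486 CPM to 95.1, 158, 155 and 100.1 CPM without overlap (log2 fold change -1.54 ± 0.24, edgeR adjusted p = 0.00184). SEMA4B fell from 11.1, 9.99, 20.7 and 15.4 CPM to 2.68, 6.28, 4.09 and 9.96 CPM (log2 fold change -1.31 ± 0.41, adjusted p = 0.0432), with the call lost without iEC C, E or F or iREC C, D or E (adjusted p up to 0.121). SEMA4C, the ligand of plexin-B2, at 35.2 to 125 CPM in iEC and 106 to 144 CPM in iREC, and SEMA7A, the GPI-anchored ligand of plexin-C1, were not called. SEMA4G was higher in every iREC sample and did not pass the test (adjusted p = 0.0548); its exons overlap MRPL43 on the other strand, and use of strand in counting is not given in the sources used here.

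NRP2, the receptor of SEMA3F and SEMA3G, rose from 423, 279, 433 and 557 CPM to 1207, 1187, 1649 and 740.3 CPM, with no overlap (log2 fold change 1.5 ± 0.27, edgeR adjusted p = 0.0039). NRP1, the receptor of SEMA3A, stood at 187 to 648 CPM in iEC and 416 to 744 CPM in iREC and was not called (adjusted p = 0.184); without iEC D it was higher by 1.31 on the log2 scale (adjusted p = 0.00542). PLXNA2, a co-receptor with neuropilins, fell from 522, 417, 452 and 354 CPM to 224, 157, 202 and 179 CPM (log2 fold change -1.20 ± 0.16, adjusted p = 0.000779). PLXNA4, of the same type, rose from 1.04, 1.33, 3.08 and 0.787 CPM to 40.2, 30.0, 62.1 and 12.5 CPM (log2 fold change 4.52 ± 0.58, adjusted p = 0.000655). PLXNB1, a receptor of SEMA4D, stood at 52.9, 28.9, 49.96 and 64.9 CPM in iEC and 14.3, 14.1, 12.9 and 35.1 CPM in iREC, so that sample F overlapped iEC (log2 fold change -1.36 ± 0.37, adjusted p = 0.0245); the call was lost without iEC C, E or F or iREC C, D or E (up to 0.0745). PLXNB3 stood at 13.9, 9.54, 37.2 and 31.9 CPM in iEC and 7.98, 6.92, 9.59 and 6.75 CPM in iREC, with a slight overlap (log2 fold change -1.57 ± 0.41, adjusted p = 0.0218). It lost the call without iEC E, iEC F or iREC D, and its exons overlap those of SRPK3 on the same strand over 1432 bases.

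PLXNC1, the semaphorin-7A receptor, stood at 5.98, 3.603, 6.45 and 7.16 CPM in iEC and 8.18, 13.99, 9.83 and 55.5 CPM in iREC. The groups did not overlap, but iREC F was far above the rest (log2 fold change 1.91 ± 0.60, edgeR adjusted p = 0.0456). Without iREC F it was 0.88 with an adjusted p of 0.0573, and the call was also lost without iEC C, D, E or F or iREC D (adjusted p 0.063 to 0.0994). Its exons overlap CEP83 on the opposite strand. PLXND1, the receptor of SEMA3E, at 610 to 1211 CPM in iEC and 745 to 925 CPM in iREC, and PLXNB2 at 177 to 266 and 184 to 413 CPM, were not called.

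SLIT and ROBO genes number 7, with 6 tested and 3 called. SLIT2, a secreted ligand of ROBO1 and ROBO2, stood at 7.74, 39.3, 4.62 and 8.66 CPM in iEC and 201, 119, 121 and 210.4 CPM in iREC, again with the highest iEC value in sample D (log2 fold change 3.43 ± 0.65, edgeR adjusted p = 0.00463; 4.53 without iEC D). SLIT3 stood at 0.390, 0.190, 0.178 and 1.002 CPM in iEC and 1.18, 3.93, 1.16 and 51.8 CPM in iREC. One iREC sample set that fold, since the log2 fold change of 5.05 ± 1.42 (adjusted p = 0.0286) was 2.25 without iREC F (adjusted p = 0.0467) and 5.81 without iEC F, and the call was lost without iEC C, D or E. ROBO4, the endothelial receptor, fell from 160, 153, 222 and 288 CPM to 74.9, 89.4, 105 and 58.8 CPM without overlap (log2 fold change -1.33 ± 0.25, adjusted p = 0.0042). ROBO1, ROBO2 and ROBO3 were not called.

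Netrins and their receptors number 9, with 6 tested and 2 called. NTN4 (ENSG00000074527, chr12:95657807-95791152 on GRCh38, minus strand), the laminin-related netrin of basement membranes, rose 76.9-fold. It stood at 1.95, 1.64, 6.99 and 12.7 CPM in iEC and 342, 626, 510 and 308 CPM in iREC (log2 fold change 6.26 ± 0.69, edgeR adjusted p = 0.000295; 6.97 without iEC F). UNC5C, a netrin receptor, rose from 9.95, 41.0, 18.9 and 40.5 CPM to 103, 63.9, 71.2 and 125 CPM (log2 fold change 1.72 ± 0.43, adjusted p = 0.018), with the call lost without iEC E (adjusted p = 0.0592). UNC5B, the endothelial netrin receptor, stood at 90.9, 151, 36.9 and 72.4 CPM in iEC and 15.3, 40.8, 27.1 and 143 CPM in iREC, where sample F lay above the other 3. It was not called (log2 fold change -0.64, adjusted p = 0.524), and without iREC F it was lower (-1.67, adjusted p = 0.0329). NEO1, a receptor of netrins and of repulsive guidance molecules, stood at 6.39 to 13.7 CPM in iEC and at 5.17, 15.9, 6.05 and 111 CPM in iREC and was not called.

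**Figure D4:**
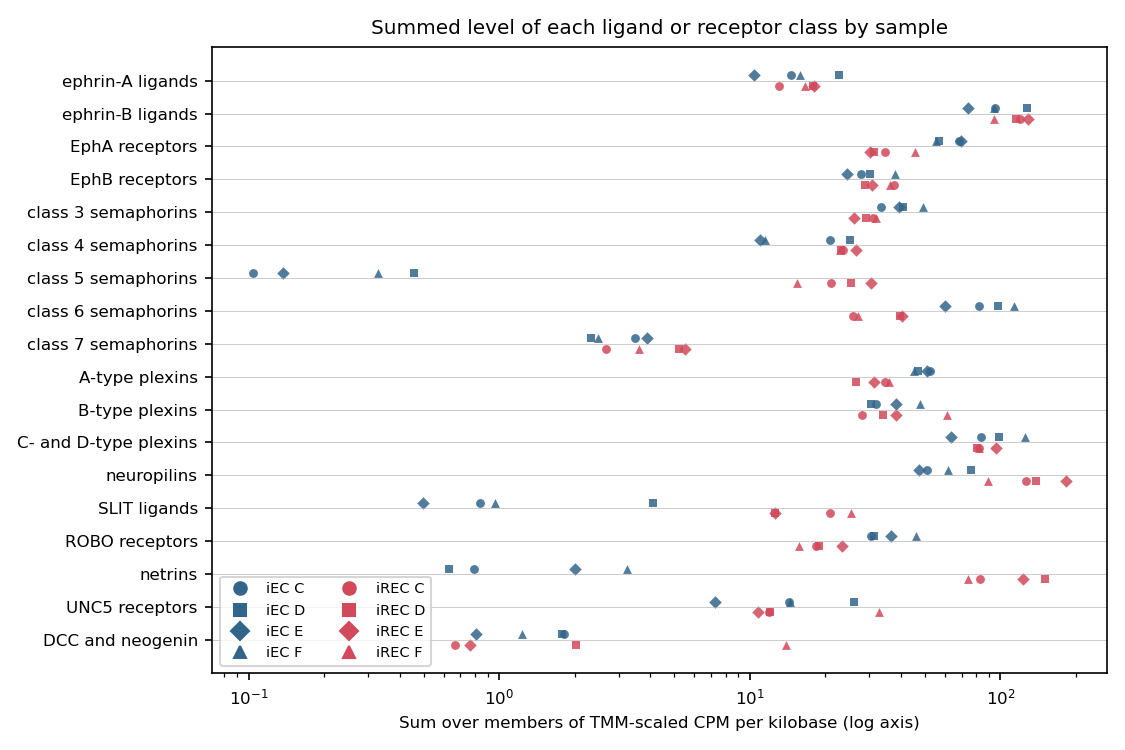
Sum over the members of each class of TMM-scaled CPM per kilobase, on a log axis, with 1 point per sample (blue iEC, red iREC). All iREC points of the netrins, SLITs, class 5 semaphorins and neuropilins lie above iEC, and those of 5 other classes lie below.

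Levels of different genes were compared per kilobase of deposited gene length. Summed over a class, 9 of 18 classes did not overlap between the groups. Of single genes tested, 29.1% did not overlap, and no such share was formed for sums of other genes. The netrins went from 1.67 ± 1.21 CPM per kilobase in iEC to 108 ± 36.0 in iREC (SD, n = 4), the class 5 semaphorins from 0.256 ± 0.165 to 23.0 ± 6.32, the SLITs from 1.60 ± 1.68 to 17.9 ± 6.32 and the neuropilins from 59.1 ± 13.0 to 134 ± 38.7. Class 6 semaphorins went from 88.2 ± 22.5 to 33.3 ± 7.999, EphA receptors from 62.5 ± 7.31 to 35.5 ± 7.04, ROBO receptors from 36.1 ± 7.11 to 19.1 ± 3.09, A-type plexins from 48.8 ± 3.41 to 32.0 ± 4.16 and class 3 semaphorins from 40.7 ± 6.52 to 29.5 ± 2.54. Ephrin-B ligands together were at 98.1 ± 22.1 and 114 ± 14.7, an overlap in which EFNB1 fell and EFNB2 rose. Several sums were mostly 1 gene. NTN4 made up 107 of the netrin sum in iREC, and NTN1 was not called. SEMA6B made up 83.5 of the class 6 sum in iEC, EPHA2 made up 60.0 of the EphA sum, and SLIT2 made up 16.8 of the SLIT sum in iREC. SEMA3F made up 34.4 of the class 3 sum in iEC and 5.12 in iREC, while SEMA3G went from 2.75 to 17.9. The median log2 fold change of class 3 was 0.75, with 2 members called in each direction. These sums are descriptions, with no test.

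Ratios of 6 pairs of a ligand gene and a receptor gene were formed in each sample, as log2 of CPM per kilobase. They compare RNA levels only, and binding within a pair, NTN4 with UNC5B included, was not tested. The SLIT2 ratio was formed with ROBO4 and not with ROBO1, which binds SLIT2 and was not called (log2 fold change 0.11). The ratio of EFNB2 to EPHB4 was -0.039, 1.225, -1.129 and -0.59 in iEC C to F and 1.642, 1.944, 2.012 and 1.269 in iREC, so the groups did not overlap, although iEC D came close. SLIT2 to ROBO4 moved from -4.71 ± 1.60 to 0.505 ± 0.788 and NTN4 to UNC5B from -3.53 ± 2.11 to 4.16 ± 1.57 (SD, n = 4), both without overlap. SEMA3F to NRP2 moved from 0.201 ± 0.255 to -4.27 ± 1.38. SEMA3G to NRP2 and SEMA3A to NRP1 overlapped between the groups. For both NRP2 ligands the receptor was higher in iREC, while SEMA3F fell and SEMA3G rose.

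**Figure D5:**
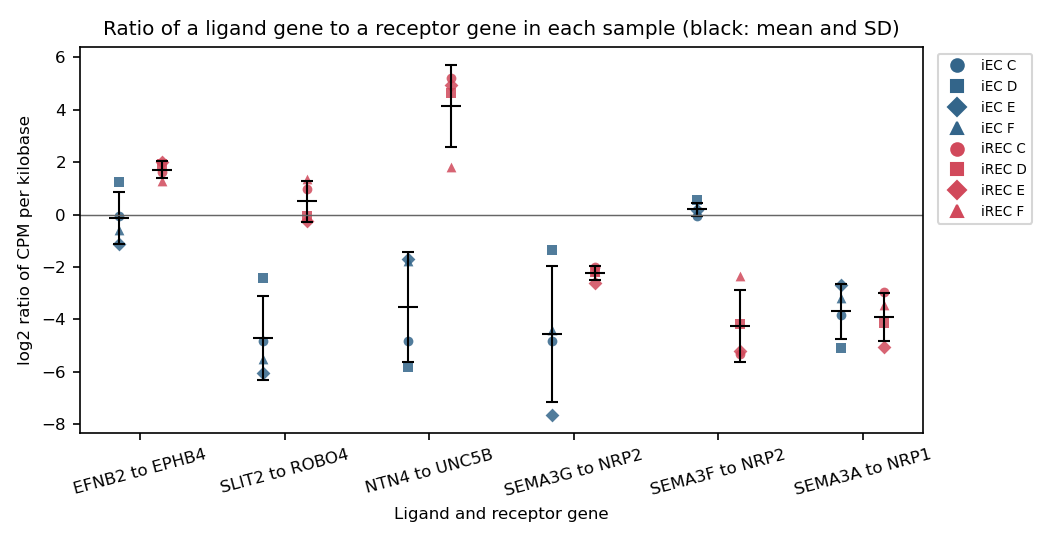
Log2 ratio of a ligand gene to a receptor gene in CPM per kilobase for 6 pairs, with 1 point per sample and black bars for the mean and SD of each group (n = 4). The iREC points of NTN4 to UNC5B, SLIT2 to ROBO4 and EFNB2 to EPHB4 lie above all iEC points, and those of SEMA3F to NRP2 lie below.

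Other genes of these pathways were read from a list of 50 that holds intracellular signalling genes, further ligands, antagonists, adhesion molecules and co-receptors, of which 44 were tested. Of these 44, 11 were higher in iREC and 5 lower. Among all genes tested, 13.2% were higher and 11.7% lower, so the number of lower list genes is close to the share over all genes. The median log2 fold change of the list was 0.22, beside 0.02 over all genes. ABLIM1, an actin-binding protein, rose by 3.10 on the log2 scale, the adhesion molecule L1CAM by 2.57 and MICAL2, an actin oxidase, by 2.35. The netrin antagonist DRAXIN fell by 3.19, ABLIM3 by 2.88 and the collapsin response mediator CRMP1 by 1.79.

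In the authors' deposited table, 27 members had an adjusted p under 0.05, 15 higher and 12 lower in iREC. Of these 27, 25 were also called here, with no opposite sign, and 1 member called here, SLIT3, was not among them. DESeq2, run here as an alternative, gave SLIT3 no adjusted p and did not call it either.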

How the data were processed

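Poly-A selected RNA from 4 iEC and 4 iREC samples was sequenced, per the labels' protocols with a dUTP second strand. Fastp, HISAT2 2.0.5 and hg38 are named in the submitters' processing notes; the counting program, annotation and strand setting are not given in the sources used here. The authors deposited 1 table with raw read counts per gene and sample. The same deposited table holds normalized counts (a signal scaled by a factor per sample) and FPKM values, which were not used, and log2 fold changes and p-values, which were used for comparison only. Columns of other samples numbered 0. Gene starts and ends in the table matched GENCODE release 29 on GRCh38.

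From the counts, genes were kept by filterByExpr in edgeR 4.0.16 (R 4.3.3), scaled by TMM and tested by its quasi-likelihood F-test with group as the only term and all 8 samples. Benjamini-Hochberg adjustment ran over all 15330 genes, with 0.05 as the threshold for a call. Standard errors came from the coefficient and the F statistic. A prior count of 2 entered the log2 CPM. The procedure was tested on simulated data. In edgeR, 22.4% of 107 genes changed by 1 on the log2 scale were recovered, and 65.6% of 93 changed by 2. False calls were 4.5% of its calls. DESeq2 recovered 53.3% and 82.8%, with 22.5% false calls. A member that was not called may therefore still differ. Folds against a group at or under 3 counts are lower bounds. Alternatives were other scalings and filters, DESeq2 1.42.0, voom in limma 3.58.1, a replicate block and each sample left out.

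The members and lists were chosen with earlier results of these data known. The text names every called member, the most abundant member per kilobase of each class and 6 endothelial marker genes (EFNB2, EPHB4, ROBO4, UNC5B, SEMA3G, NRP2), and up to 3 called genes in each direction of other lists. EPHA4, EFNA4, SEMA4G, SEMA3A, SEMA3C, SEMA6D and NRP1 were added after their values were seen. EPHB2, SEMA3B, ROBO1, ROBO2, ROBO3, NTN1 and the members not tested are also named outside that rule. So are the list genes POU5F1, NANOG, SOX2, PROX1, PDPN, LYVE1 and FLT4, none of them called. One list of marker genes is not reported here.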

Additional observations from a re-analysis of the deposited data

Results flagged for a closer look

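Of 68 groups of 4 samples checked on log2 CPM for a sample far from the others, 2 had one, where chance gives 3.4. PLXNB1 was at 35.1 CPM in iREC F and at 12.9 to 14.3 CPM in the other 3 iREC samples. EFNA5 was at 14 CPM in iREC F and at 4.85 to 5.82 CPM in the other 3. NEO1, SLIT3 and PLXNC1 were also far above the other iREC samples in iREC F, but were not singled out on the log scale. The genes share the same samples and each check has 4 values, so 2 against 3.4 does not show that such samples were few. In 14 of the 59 tested members, iREC F was at least 2-fold above the next iREC sample. The mural and epithelial marker sums, and the pluripotency sum that was mostly LIN28A, were also highest in iREC F. Their part in these values was not tested.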

How the results depend on the processing

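Of the 26 called members, 16 kept the call in every alternative that tested them: PLXNA2, PLXNA4, SEMA3D, SEMA3E, SEMA3F, SEMA5A, SEMA5B, SEMA6B, EPHA2, EPHA5, EPHB6, EFNB1, NTN4, NRP2, ROBO4 and SLIT2. Other scalings, filters and tools called 24 to 27 members. Leaving out 1 sample called 18 (without iEC C) to 26 members, 10 to 15 higher and 8 to 13 lower, and 2660 to 4214 genes in all. Without both iREC E and F, an alternative chosen after seeing the data, 2541 genes and 18 members were called, 9 of them higher; fewer samples were compared. Signs reversed, all for members that were not called, in PLXNB2 (-0.009 without iREC E and F), PLXND1 (0.022 without iEC F; -0.307 to 0.022 over the single omissions), NEO1 (-0.25 without iREC F, with 2.043 the highest single omission; -0.026 without iREC E and F) and EFNA1 (-0.104 without iEC E, up to 0.43 without iEC D); the cause was not tested. PLXNC1, PLXNB3 and SLIT3 were not called by voom (adjusted p 0.123, 0.0686 and 0.182). SLIT3 was also not called by DESeq2, which gave it no adjusted p.

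The replicate letters are shared, but nothing says what they mark. Deviations of same-letter samples from their group means correlated at 0.168 (C), -0.0794 (D), 0.0291 (E) and 0.25 (F), so the letters were not taken as a pairing. With the replicate block 3334 genes and 25 members were called, without PLXNC1 (adjusted p 0.0636); C and F correlated best with their own letter, D and E did not. Members called in an alternative alone were SEMA3C (without iREC C, adjusted p 0.0361), SEMA3A (without iREC E, 0.0448), SEMA6D (without iEC D, 0.0376; voom, 0.038), EFNA4 (DESeq2, 0.0254), SEMA4G (upper quartile scaling, the stricter filter, DESeq2 and without iREC E), and NRP1, EPHA4 and UNC5B as given above. Counts near the floor limit EPHA5, EPHB6 and the 10 members that were not tested.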
